A study of Homo sapiens with 12 samples.

Results

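H1650 and PC9 cells that had both been treated with erlotinib were compared with each other, to ask which genes separated the 2 lines in the treated state. The comparison takes the 2 H1650 and the 2 PC9 libraries labelled as erlotinib for 36 h, which are 4 of the 12 libraries of the series, and every gene that passed the expression filter. PC9 and H1650 are established human non-small cell lung cancer lines, listed as wild type in genotype (no engineered change), and both carry the same activating in-frame deletion in the EGFR gene. Polyadenylated RNA was sequenced from cells that had received 10 µM erlotinib for 36 h, 0.1 µM osimertinib for 36 h, or 0.1% DMSO at 0 h (T0), with 2 replicates of each of the 6 combinations of line and treatment. The T0 libraries were taken at the start, and none held in vehicle for 36 h was used here, so drug and time in culture cannot be told apart wherever erlotinib is set against T0. Each line stands for a single tumour, so a line difference cannot be assigned to any one feature of the lines.

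Erlotinib is a reversible inhibitor of the EGFR kinase. EGFR, a receptor of the ERBB family, signals through the RAS-RAF-MEK-ERK cascade, which drives cell cycle entry and a set of rapidly responding feedback genes, and through PI3K and AKT, which favour survival and growth. In EGFR-mutant lung cancer cells, loss of these signals stops proliferation and can shift the balance of the BCL2 family toward apoptosis. The study set these lines side by side because they carry the same receptor mutation and yet differ in how many cells die under the inhibitors.

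The erlotinib libraries held between 17961765 and 25673318 counts on genes, against 17961765 to 26346187 over all 12, and a count of 0 allows up to 3 reads, or 0.117 to 0.155 CPM (normalised counts per 1000000) depending on the library. Such limits cover counting error only. Values of a gene are given for both replicates of a line, and where only "against" joins 2 pairs, PC9 comes first and H1650 second. Mitochondrial transcripts took 6.81% to 6.87% of the counts in PC9 and 6.51% to 6.60% in H1650. All 6 epithelial markers (EPCAM, CDH1, KRT7, KRT8, KRT18 and KRT19) were present in both lines. The lung adenocarcinoma markers were not: NKX2-1 and SFTPB had 0 or 1 read in every erlotinib library, and NAPSA had 9 to 33. Summed reads of the other cell types were low, with 15 to 18 reads in PC9 and 41 to 52 in H1650 for 5 haematopoietic markers, 89 to 90 and 15 to 24 for 4 endothelial markers, and 523 to 539 and 363 to 366 for 6 fibroblast markers, of which DCN and LUM were at 0. In RNA from a whole culture, fewer cells of a kind and less RNA per cell cannot be told apart. The counting was not stated to use strand, so reads cannot be assigned between a gene and an annotated neighbour that overlaps its exons, and of the genes named below this touches EGFR, ERBB2, AXL, ETV5, DUSP6, CCND1, PIK3IP1, IRS2, DEPTOR, PHLPP2, CDKN1A, CDKN2A, BCL2L11, BMF, BCL2L1, BAK1, CASP9, ITGA6, KRT13, TYMS and TGM2 among others. The paper calls the 2 libraries of a group biological replicates. The labels do not say whether these came from separate cultures, so the p-values measure the spread between these libraries.

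Treated H1650 and PC9 cells differed at most genes. Of 19108 tested genes, 13774 (72.1%) passed edgeR's quasi-likelihood test at a Benjamini-Hochberg adjusted p under 0.05, and these are the genes called different below. Expression was higher in H1650 for 7017 of them and higher in PC9 for 6757. The difference was over 2-fold for 7771 called genes and over 8-fold for 2816, and its median size over all tested genes was 0.84 on the log2 scale. All log2 fold changes here are H1650 minus PC9 unless stated, so positive values mean higher in H1650. Against a background this high, being called says little about a single gene, and direction, size and history carry the description.

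Most of the differences had been there before the drug. The same contrast at T0, made from libraries that the erlotinib contrast does not use, called 13305 genes. Of the 10797 genes called at both times, 9546 kept their sign (88.4%). These standing differences made up 69.3% of the genes called under erlotinib, and for 6039 of them the size of the line difference did not pass a test for change, while 1831 widened and 1676 narrowed. Across all 19108 genes the log2 line differences at T0 and under erlotinib correlated (Pearson 0.83, Spearman 0.72), which is given as a description since genes are not independent replicates. A further 1592 genes (11.6% of those called) were emerging, meaning called under erlotinib and not at T0 with a called change between the times. Another 1251 (9.08%) were reversed, with the opposite sign at T0, and 1399 genes called at T0 had closed, with no call under erlotinib and a called change. The larger of the 2 drug responses was that of PC9 for 86.6% of emerging, 91.7% of reversed and 86.1% of closed genes. PC9 also responded more across all tested genes. The change from T0 to erlotinib was called for 61.8% of them in PC9 and 36.5% in H1650. Its median size was 0.69 in PC9 and 0.35 in H1650 on the log2 scale. These classes were also chosen on a changed line difference, which favours the line that responds more. The shares therefore do not show that the larger PC9 response was particular to these classes.

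**Figure D1:**
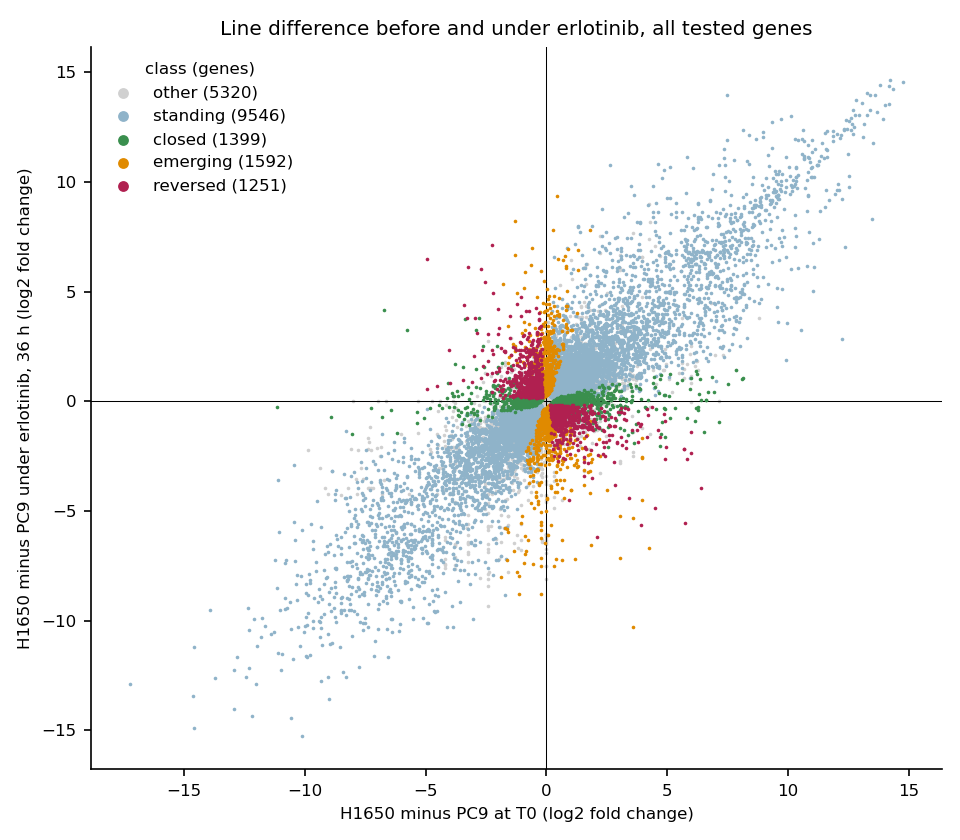
Log2 fold change of H1650 minus PC9 for every tested gene, at T0 on the x axis and under erlotinib on the y axis, coloured by class. The 9546 standing genes follow the diagonal, the 1592 emerging genes lie along the vertical through 0, the 1251 reversed genes fill the 2 opposite quadrants, and the 1399 closed genes lie along the horizontal through 0.

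Gene lists written from general knowledge of these cells and this treatment were described by how many of their tested members were called each way, beside the share of all tested genes called H1650-higher (36.7%) or PC9-higher (35.4%). DNA replication and mitosis genes were higher in H1650 without exception among the members tested, with 29 of 29 E2F replication genes and 27 of 27 G2M genes called. Interferon-stimulated genes (37 of 40) and ERK output genes (16 of 19) were mostly higher in H1650. Cytosolic ribosomal proteins (65 of 75), NRF2-linked and aldo-keto reductase genes (23 of 26) and keratins (13 of 17) were mostly higher in PC9. Lists of apoptosis, PI3K, collagen, epithelial and mesenchymal genes were split in both directions. At T0, when 35.8% of all genes were called H1650-higher and 33.8% PC9-higher, 38 of 40 interferon genes were already higher in H1650 and 22 of 26 NRF2-linked genes in PC9, whereas the replication and mitosis lists were divided and 14 of 19 ERK output genes were higher in PC9.

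**Figure D2:**
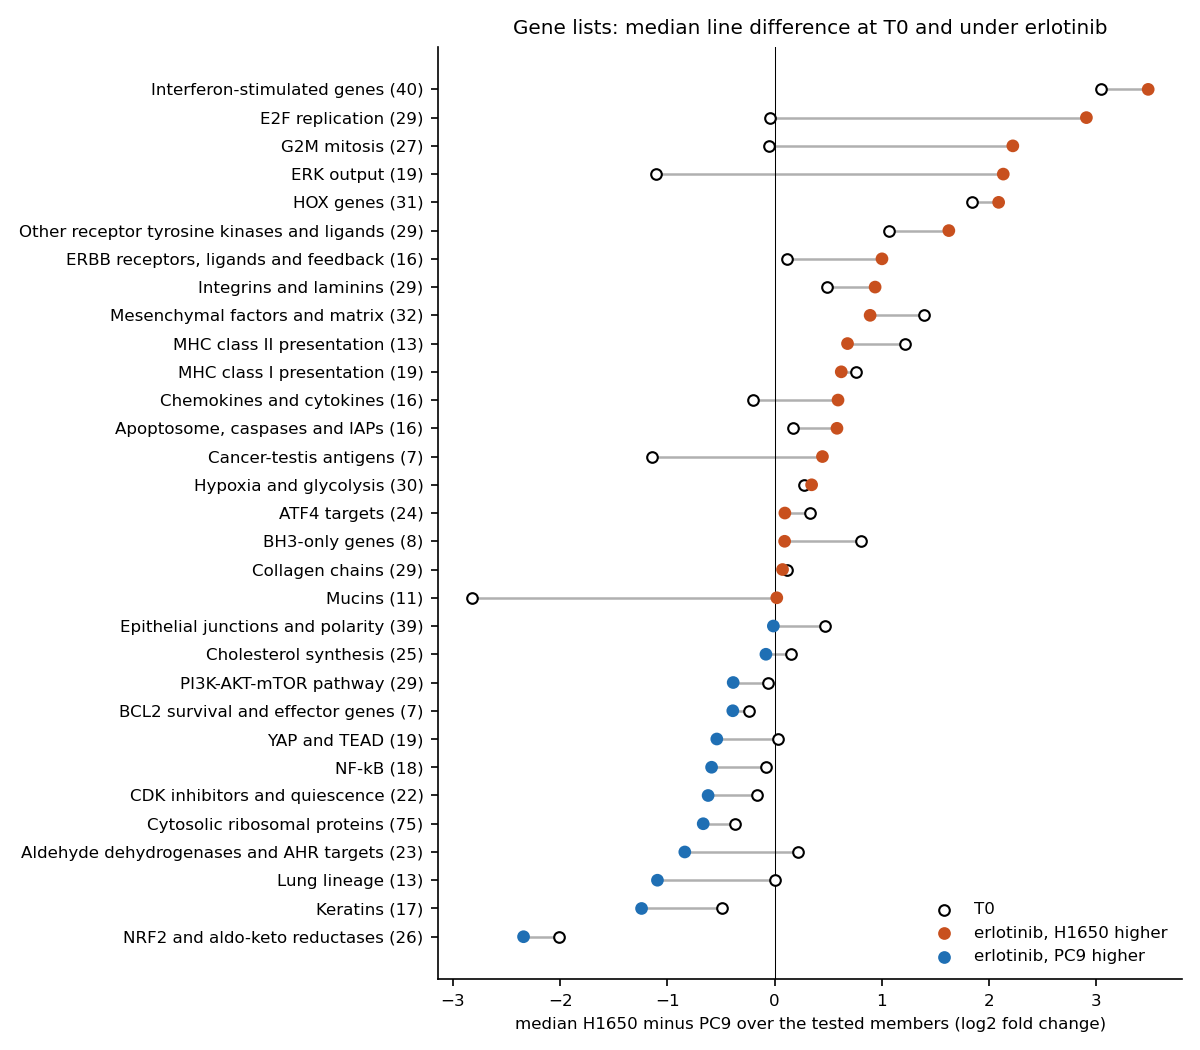
Median log2 fold change of H1650 minus PC9 over the tested members of each gene list (number tested in brackets), at T0 and under erlotinib. The E2F and G2M lists move from near 0 at T0 to 2.91 and 2.22, the ERK output list moves from -1.11 to 2.13, and the interferon and NRF2 lists keep medians of the same sign.

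The receptors that erlotinib and its relatives act on were expressed in both lines. EGFR itself stood at 638 and 710.4 CPM in PC9 and 435 and 481 CPM in H1650, so the PC9 libraries were the higher, by 0.56 on the log2 scale (SE 0.07, adjusted p = 1.76e-07). ERBB2, the co-receptor without a ligand of its own, was lower in PC9 (178 and 173 CPM) than in H1650 (336 and 328 CPM), and ERBB3, the kinase-impaired partner that couples to PI3K, was higher in PC9 (232 and 253 CPM) than in H1650 (63.2 and 60.5 CPM). Their log2 fold changes were 0.92 and -1.97, both called, and each had the same sign at T0 (1.72 and -1.57). Of 16 tested genes of the ERBB list, 10 were higher in H1650 and 5 in PC9, with a median of 1.00 against 0.11 at T0 and 0.02 over all tested genes.

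The ligands of the family parted. Epigen (EPGN) was at 2.69 and 3.63 CPM in PC9 and 96.5 and 110.1 CPM in H1650, and amphiregulin (AREG) at 0.537 and 0.468 against 3.04 and 1.72 CPM, with log2 fold changes of 5.02 and 2.23. AREG had been higher in PC9 at T0 (-1.72). EGF, the founding ligand, went the other way and was an emerging difference. Both lines had similar levels at T0 (11.5 and 10.7 CPM in PC9, 10.1 and 12.2 CPM in H1650), and under erlotinib PC9 held 10.4 and 11.5 CPM while H1650 held 0.568 and 0.466 CPM (log2 fold change -4.40, SE 0.24, adjusted p = 2.23e-15). The change lay in H1650, where EGF fell (-4.43 from T0), while the PC9 response was -0.02. Betacellulin (BTC) was also higher in PC9 (-2.41). ERRFI1, the feedback inhibitor that binds the EGFR kinase domain, was 42.3 and 40.0 CPM in PC9 and 204 and 195 CPM in H1650, and its H1650 libraries were the higher at both times.

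Other receptor tyrosine kinases, which can supply the same downstream pathways, included several that were silent in PC9. FGFR2, a fibroblast growth factor receptor, had 0 reads in both PC9 libraries and 54.5 and 53.8 CPM in H1650, at least 400.2-fold higher when PC9 is set at 3 reads per library. KIT, the stem cell factor receptor, and RET, the signalling receptor of the GDNF family, also had 0 reads in PC9 and were at least 88.7-fold and 28.8-fold higher in H1650. In PC9 the abundant receptors were MET, at 754 and 837 CPM against 209.8 and 233 CPM in H1650, and AXL, at 298 and 300.5 against 49.8 and 58.1 CPM, together with the AXL ligand GAS6 (106 and 92.8 against 24 and 17.4 CPM). All 3 differed beyond the replicate spread (log2 fold changes -1.85, -2.47 and -2.27) and all had been higher in PC9 at T0. The MET difference had widened, from -0.78 at T0 (change -1.06, SE 0.10, adjusted p = 1.47e-09). The ephrin receptor EPHA4 was 45.4 and 51.3 CPM in PC9 and 3.41 and 2.61 CPM in H1650. Over the 29 tested genes of this list, 17 were higher in H1650 and 9 in PC9, with a median of 1.62. Among the alternative settings as few as 11 were higher in H1650, and the median fell to as low as 0.24.

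ERK output genes, the feedback inhibitors and transcription factors that rise and fall with ERK activity, turned around between T0 and erlotinib. At T0, 14 of the 19 were higher in PC9, and under erlotinib 16 were higher in H1650, 11 of them with a called reversal. The median line difference was -1.11 at T0 and 2.13 under erlotinib, while over all tested genes it was 0.04 and 0.02. For the change of the line difference itself, 16 of 19 were called toward H1650 and 3 toward PC9, beside 21.1% and 19.8% of all genes. The median change with erlotinib over the list was -3.22 in PC9 and 0.49 in H1650.

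ETV5, a PEA3-family ETS factor, was at 62.1 and 63.5 CPM in PC9 and 5.22 and 6.56 CPM in H1650 at T0, and at 1.25 and 0.625 CPM in PC9 and 19.2 and 19.6 CPM in H1650 under erlotinib. The lines did not overlap at either time, and they had changed places (log2 fold change 4.39, SE 0.20, adjusted p = 2.16e-17). SPRY4, a Sprouty inhibitor of receptor signalling, fell in PC9 to 3 reads over both erlotinib libraries against 389 in H1650, a ratio of 152 (95% exact interval 51.7 to 741, counting error only), after 22.1 and 25.8 CPM in PC9 and 4.62 and 5.44 CPM in H1650 at T0. DUSP6, the phosphatase that inactivates ERK, was 0.314 and 0.312 CPM in PC9 and 2.17 and 3.21 CPM in H1650 under the drug, again with the lines in the opposite order to T0 (13.6 and 12 against 1.54 and 1.97 CPM).

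SPRED2, which restrains RAF activation, and EPHA2, a receptor whose transcript follows ERK activity, had the same form, with erlotinib log2 fold changes of 4.09 and 3.36 after -0.73 and -0.31 at T0. ETV1, a further PEA3 factor, was the largest difference of the list, at 0.269 and 0.156 CPM in PC9 and 53.1 and 56.3 CPM in H1650 (log2 fold change 8.0, SE 0.22), and was already higher in H1650 at T0 (1.29). CCND1, cyclin D1, was reversed by a small margin. Its erlotinib libraries read 180.3 and 182 CPM in PC9 and 199 and 207 CPM in H1650, a log2 fold change of 0.17 (adjusted p = 0.028), after -1.78 at T0. The direction held in all 21 alternative settings, but only 13 called it, and leaving out PC9 replicate 1, PC9 replicate 2 or H1650 replicate 2 lost the call (highest adjusted p = 0.175 over all settings). The 3 members that remained higher in PC9 were FOSL1, an AP-1 subunit (15.2 and 13.1 CPM against 3.92 and 3.68 CPM), the transcription factor MYC (118 and 118 against 49.3 and 54.1 CPM) and the phosphatase DUSP4 (16.5 and 16.4 against 12.6 and 13.5 CPM). The DUSP4 difference had shrunk from -4.93 to -0.34, and was not called without H1650 replicate 1 (adjusted p = 0.057).

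**Figure D3:**
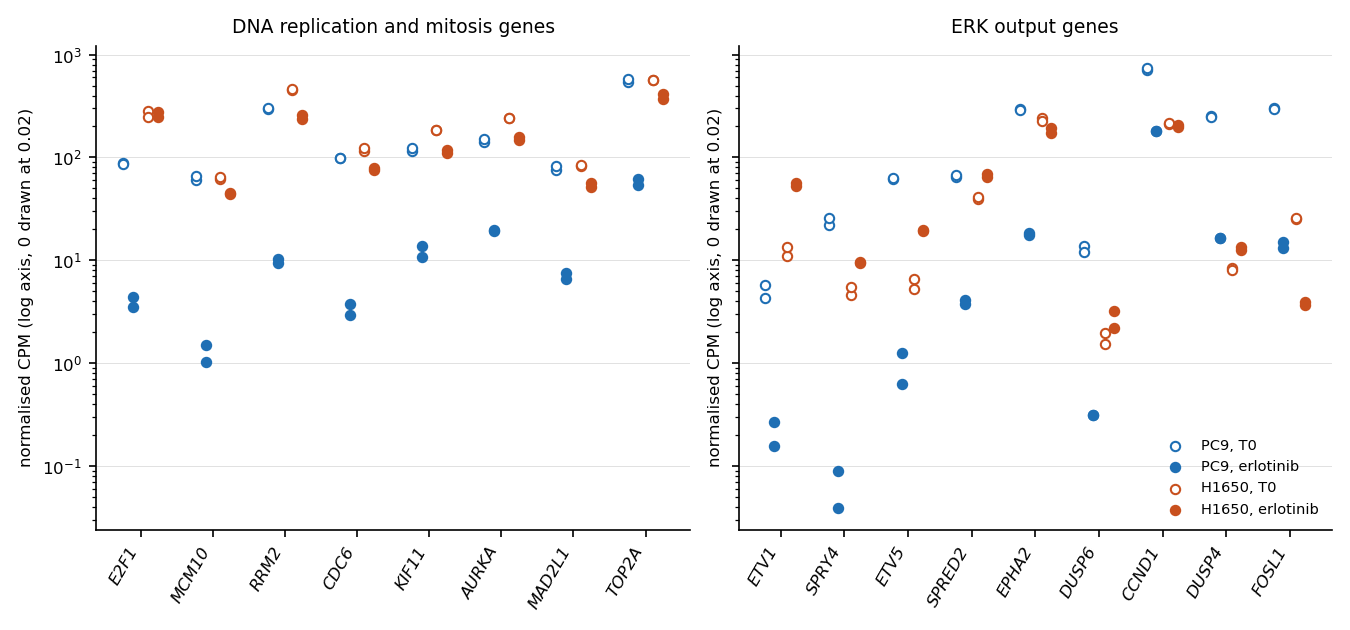
Normalised CPM on a log axis in each of the 4 T0 and 4 erlotinib libraries, for 8 replication and mitosis genes and 9 ERK output genes; each point is 1 library. The PC9 erlotinib libraries lie below all other libraries for the replication and mitosis genes, and for SPRY4, ETV5, SPRED2, EPHA2 and DUSP6 the lines change places between T0 and erlotinib.

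Genes of the PI3K-AKT-mTOR pathway were split, with 8 of 29 higher in H1650, 14 higher in PC9 and a median of -0.39. PIK3IP1, a membrane protein that inhibits the PI3K catalytic subunit, had the largest difference. At T0 it was low in both lines (1.01 and 0.888 CPM in PC9, 1.73 and 1.89 CPM in H1650), and under erlotinib it was 58.7 and 58.2 CPM in PC9 and 2.58 and 2.56 CPM in H1650 (log2 fold change -4.51, SE 0.13, adjusted p = 7.56e-22). The insulin receptor substrates IRS1 (59 and 59.2 against 10.4 and 10.4 CPM) and IRS2 (137 and 128 against 26.2 and 20.7 CPM), adaptors that bring PI3K to receptors, were higher in PC9 at both times. DEPTOR, a subunit that restrains mTOR, and PHLPP2, a phosphatase that acts on AKT, were higher in H1650 (0.717 and 0.625 against 10.9 and 9.03 CPM, and 8.78 and 6.71 against 94.2 and 94.9 CPM).

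The E2F replication genes code for the licensing helicase, the nucleotide synthesis enzymes and the factors that E2F transcription factors switch on at the start of S phase. All 29 were higher in H1650, from 0.32 for the helicase subunit MCM7, named for that place, to 6.05 for E2F1 itself, with a median of 2.91. At T0 the list had been divided (12 higher in H1650, 13 in PC9, median -0.05), and all 29 passed the test for a change toward H1650. The median response to erlotinib over the list was -3.34 in PC9 and -0.39 in H1650. E2F1 was at 88.9 and 86.8 CPM in PC9 at T0 and 3.49 and 4.37 CPM under erlotinib, while H1650 held 280.3 and 247 CPM at T0 and 277 and 249 CPM under erlotinib. The PC9 erlotinib libraries were far below the other 6, and the line difference was 6.05 (SE 0.12, adjusted p = 5.95e-25). MCM10, which loads the replicative polymerase, was not called at T0 (log2 fold change 0.01) and separated the lines by 5.12 under erlotinib, at 1.03 and 1.48 CPM in PC9 and 45.2 and 43.8 CPM in H1650. RRM2, the regulated subunit of ribonucleotide reductase (9.45 and 10.4 against 237 and 259.6 CPM), and CDC6, which loads the MCM helicase (2.91 and 3.71 against 79 and 74.6 CPM), were also far lower in the PC9 erlotinib libraries than in any other.

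Many promoters of these genes hold the same short element, so 2 of them are shown. In the RefSeq promoter table (GRCh38.p14, from 250 bases before to 50 bases after the annotated start), an E2F site written as TTTCCCGC, TTTCGCGC, TTTGCCGC or TTTGGCGC, on either strand, was found in 16 of the 25 list members with an entry (64.0%), against 3.33% of all 27305 promoters. Among the 12201 promoters of tested genes the share was 5.05%. The match is a description of letters and not evidence of binding. Capitals mark the matches. The E2F1 promoter lies at chr20:33686336-33686635 on the minus strand and holds 2 matches, and that of CDC6 at chr17:40287629-40287928 on the plus strand holds 1.
E2F1: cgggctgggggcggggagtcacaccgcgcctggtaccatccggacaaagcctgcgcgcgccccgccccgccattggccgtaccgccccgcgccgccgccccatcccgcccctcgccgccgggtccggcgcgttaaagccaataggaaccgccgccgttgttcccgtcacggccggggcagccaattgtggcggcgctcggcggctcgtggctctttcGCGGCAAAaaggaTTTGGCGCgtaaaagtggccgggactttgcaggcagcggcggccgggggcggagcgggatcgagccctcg
CDC6: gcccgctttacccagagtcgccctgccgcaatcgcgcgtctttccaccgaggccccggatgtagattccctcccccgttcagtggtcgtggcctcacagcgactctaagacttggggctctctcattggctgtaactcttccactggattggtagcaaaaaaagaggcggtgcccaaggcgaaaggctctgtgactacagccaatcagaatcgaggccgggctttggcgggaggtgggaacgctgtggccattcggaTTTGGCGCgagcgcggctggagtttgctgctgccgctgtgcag

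Mitosis genes behaved alike. All 27 tested G2M genes were higher in H1650, with a median of 2.22 against -0.06 at T0, when 6 were higher in H1650 and 11 in PC9, and all 27 passed the test for a change toward H1650. The median response was -3.11 in PC9 and -0.66 in H1650. KIF11, the kinesin that separates the spindle poles, was at 10.7 and 13.8 CPM in PC9 and 110.0 and 117 CPM in H1650 (log2 fold change 3.20, SE 0.10, adjusted p = 2.08e-21). AURKA, a spindle pole kinase (19 and 19.6 against 148 and 158 CPM), MAD2L1, a spindle checkpoint protein (6.63 and 7.57 against 52.1 and 56.1 CPM), and TOP2A, the topoisomerase that decatenates chromosomes (54.2 and 61.9 against 373 and 411 CPM), were the next largest. MAD2L1 and TOP2A had not been called at T0 (0.07 and 0.02). The smallest difference of the list was that of the transcription factor FOXM1 (0.68), named here for that place.

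A second promoter element, the cell cycle homology region (CHR), was written as TTTGAA on either strand. It was present in 14 of the 22 G2M members with a promoter entry (63.6%), in 15.4% of all promoters and in 10.1% of those of tested genes. The KIF11 promoter, at chr10:92592880-92593179 on the plus strand in GRCh38.p14, is shown with its 1 match in capitals (read on the opposite strand).
KIF11: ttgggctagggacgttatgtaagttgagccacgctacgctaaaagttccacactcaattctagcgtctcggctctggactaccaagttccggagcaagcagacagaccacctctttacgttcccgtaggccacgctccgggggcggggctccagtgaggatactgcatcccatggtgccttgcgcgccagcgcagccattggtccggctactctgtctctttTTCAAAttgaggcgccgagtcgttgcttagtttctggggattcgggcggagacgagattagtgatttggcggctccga

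The list of cyclin-dependent kinase inhibitors and quiescence-linked genes did not follow a common direction (7 of its 22 genes higher in H1650, 14 higher in PC9). CDKN1A, which codes for p21, was 15.3 and 10.8 CPM in PC9 and 233 and 236 CPM in H1650 (log2 fold change 4.18, SE 0.11, adjusted p = 6.35e-23) and had been higher in H1650 at T0 as well (3.37). CDKN2A and CDKN2B, which code for p16 and p15, had 0 reads in both H1650 erlotinib libraries. PC9 held 199 and 151 CPM of CDKN2A and 129.9 and 126 CPM of CDKN2B, at least 975-fold and 817-fold higher with H1650 set at 3 reads per library. Their neighbour MTAP, a purine salvage enzyme, was 41.1 and 46.8 CPM in PC9 and 0.31 and 0.0931 CPM in H1650. In PC9, CDKN2B rose with erlotinib by 3.86 on the log2 scale, from 8.72 and 8.88 CPM. CDKN2C (p18), CDKN2D (p19) and the pocket protein RBL1 (p107), which is itself an E2F target, were higher in H1650 (2.73, 2.42 and 2.69). TXNIP, an arrestin-like protein induced when growth signalling falls, was 495 and 544 CPM in PC9 and 54 and 50.1 CPM in H1650.

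Apoptosis regulators differed between the treated lines in both directions. BH3-only genes are the pro-apoptotic triggers of the BCL2 family, and of 8 tested, 3 were higher in H1650, 3 in PC9 and 2 were not called, with a median of 0.09. At T0 the list had leaned to H1650 (5 higher, 1 lower, median 0.81), and 5 of the 8 passed the test for a change toward PC9. BCL2L11, which codes for BIM, was at 61.7 and 59.5 CPM in PC9 and 67.1 and 69.9 CPM in H1650. These values do not overlap, yet the log2 fold change of 0.18 (SE 0.08) was not called (adjusted p = 0.0526), where at T0 it had been 1.26. Of 21 alternative settings, 2 called it, both with the replicate number as a block, and its log2 fold change stayed between 0.11 and 0.21 in all of them. BMF, which is released from the actin cytoskeleton, and BBC3, which codes for PUMA, had passed from H1650-higher to PC9-higher. BMF was at 1.76 and 1.09 CPM in PC9 and 28.3 and 30.8 CPM in H1650 at T0, and at 86.9 and 94.1 against 72.6 and 78.6 CPM under erlotinib (log2 fold change -0.26). The BBC3 libraries sat close together, at 27.7 and 19.8 CPM in PC9 and 19.2 and 14.1 CPM in H1650 (-0.51, adjusted p = 0.00406). The call was lost without PC9 replicate 1 or H1650 replicate 2 for BBC3 (highest adjusted p = 0.182), and without PC9 replicate 2 or H1650 replicate 1 for BMF (0.0916), while the direction held in all 21 settings.

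HRK, a BH3-only gene best known from neurons, was 4.08 and 6.29 CPM in PC9 and 15.1 and 15.1 CPM in H1650, and BID, the substrate of caspase-8, was 34.7 and 32.2 against 59.4 and 55.5 CPM, an emerging difference. PMAIP1 (NOXA) was also higher in H1650 (0.56), whereas BIK was higher in PC9 (-3.18). BAD read 28.7 and 22.6 CPM in PC9 and 29.2 and 22.4 CPM in H1650, and was not called.

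Among the 7 tested survival and effector members of the family, 2 were higher in H1650 and 5 in PC9. BCL2L1, which codes for BCL-XL, was the survival gene that was higher in H1650. It was at 160.2 and 169.7 CPM in PC9 and 134 and 133 CPM in H1650 at T0, and at 54 and 58.7 CPM in PC9 and 126 and 131 CPM in H1650 under erlotinib. The lines changed order and did not overlap at either time (log2 fold change 1.19, SE 0.08, adjusted p = 1.58e-13). MCL1, another survival gene, was 261 and 270.1 CPM in PC9 and 214 and 221 CPM in H1650 (-0.29), and BCL2 was low in both lines, at 1.16 and 1.52 against 0.206 and 0.326 CPM. Of the pore-forming effectors, BAK1 was higher in H1650 (0.44) and BAX and BOK in PC9 (-0.54 and -1.37).

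Further down the pathway, 9 of 16 genes of the apoptosome, caspase and IAP list were higher in H1650 and 5 in PC9, with a median of 0.58. CASP9, the apoptosome caspase, was higher in PC9 (-0.76), and the initiator CASP8 in H1650 (0.52). BIRC3, an inhibitor of apoptosis and NF-κB target, was 21.4 and 23.7 CPM in PC9 and 3.46 and 4.47 CPM in H1650. BIRC5 (survivin), which is made in mitosis, was not called at T0 (-0.09) and higher in H1650 under erlotinib (20.9 and 20.7 against 103 and 110.2 CPM, log2 fold change 2.36). CYCS, cytochrome c, was also higher in H1650 (1.70), with the limit that reads of its processed pseudogenes may be counted with it.

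**Figure D4:**
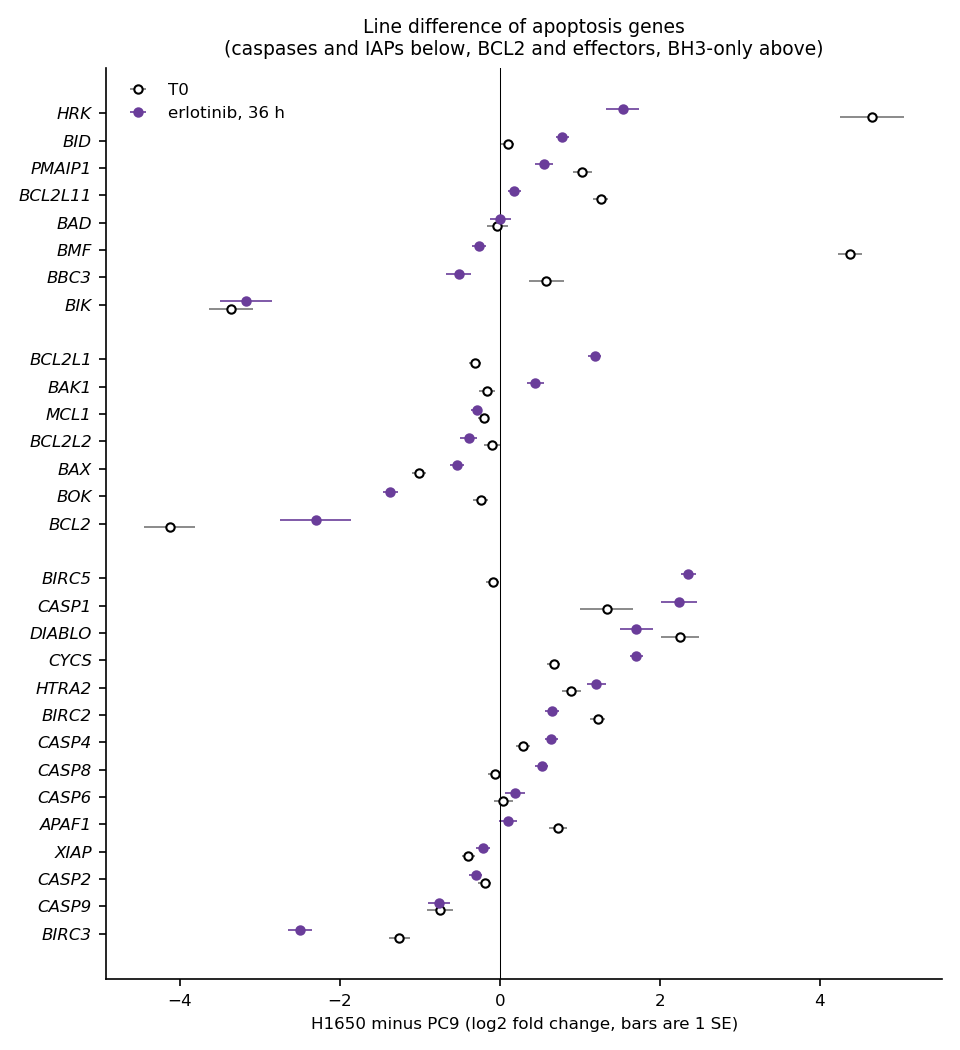
Log2 fold change of H1650 minus PC9 at T0 and under erlotinib for tested genes of 3 apoptosis lists, with bars of 1 SE. Positive values are higher in H1650; BMF moves from 4.37 to -0.26 and BCL2L1 from -0.31 to 1.19, while BIK stays below 0.

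Interferon-stimulated genes separated the lines before the drug as well as under it. Their products are the antiviral effectors and sensors that type I interferon switches on. Under erlotinib 37 of 40 were higher in H1650 and 2 in PC9, with a median of 3.48, and at T0 the counts were 38 and 1 and the median 3.04. The median change from T0 over the list was 0.94 in PC9 and 0.95 in H1650, and 38 of its 40 genes were standing. BST2, the tetherin that holds virus particles at the membrane, was 0.448 and 0.547 CPM in PC9 and 458 and 499 CPM in H1650 (log2 fold change 9.88, SE 0.15, adjusted p = 6.29e-28). IFI27 was 0.179 and 0.351 CPM in PC9 and 477 and 475 CPM in H1650, and IFI6 8.47 and 7.07 against 1102 and 1015 CPM. OAS2, which makes the activator of RNase L, was 0.448 and 0.742 CPM in PC9 and 264 and 273 CPM in H1650, and its H1650 libraries had risen from 75.4 and 62.1 CPM at T0. IFI44L followed the same pattern (0.806 and 1.02 against 153 and 138 CPM). RSAD2 and CMPK2, neighbours on opposite strands whose reads may be shared, had 0 reads in both PC9 libraries and were at least 103-fold and 166-fold higher in H1650.

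The 2 exceptions were IRF7, the interferon-amplifying transcription factor, and MX2. IRF7 was 12.2 and 10.3 CPM in PC9, while the H1650 libraries held 4 reads in all, a ratio in favour of PC9 of 114 (95% exact interval 44.3 to 419.9, counting error only). MX2, a nuclear-envelope antiviral GTPase, was not called at T0 (0.07) and 3.81 and 4.14 CPM in PC9 against 0.619 and 0.698 CPM in H1650 under erlotinib. The interferon-stimulated response element (ISRE) was written as GAAA, any 2 bases and GAAA again, on either strand. It was found in 19 of the 31 list members with a promoter entry (61.3%), in 3.65% of all promoters and in 2.84% of those of tested genes. The BST2 promoter, at chr19:17405581-17405880 on the minus strand in GRCh38.p14, is shown because it has 2 overlapping matches, in capitals, and because BST2 was among the genes most different between the lines.
BST2: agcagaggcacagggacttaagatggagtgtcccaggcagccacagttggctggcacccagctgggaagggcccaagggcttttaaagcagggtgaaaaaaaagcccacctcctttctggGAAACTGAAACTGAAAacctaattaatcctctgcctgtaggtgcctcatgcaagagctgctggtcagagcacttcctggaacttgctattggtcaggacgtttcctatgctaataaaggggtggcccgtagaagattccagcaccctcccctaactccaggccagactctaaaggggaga

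Antigen presentation leaned the same way with smaller differences. Of 19 MHC class I genes, 13 were higher in H1650 and 4 in PC9 (median 0.62, against 0.76 at T0). B2M, the light chain, was 515 and 557 CPM in PC9 and 879 and 907 CPM in H1650, and HLA-C 338 and 322 against 1173 and 1032 CPM, although the HLA heavy chains share sequence and their counts are uncertain. PSMB9, an immunoproteasome subunit, was higher in PC9 (-0.46). In the class II list 7 of 13 tested genes were higher in H1650 and 2 in PC9, with a median of 0.68. Among the alternative settings as few as 3 were higher in H1650, and the median fell to as low as 0.02. The class II chains HLA-DPA1 and HLA-DRA had the largest differences, with HLA-DRA at 0 reads in PC9 and 1.91 and 2 CPM in H1650. CIITA, the master regulator, was an emerging difference (2.33 and 1.72 CPM in PC9, 8.15 and 6.75 CPM in H1650), and CD74, the invariant chain, was higher in PC9 (35 and 36.8 against 22.3 and 18.9 CPM).

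Enzymes of xenobiotic and redox metabolism were mostly higher in PC9. NRF2 is the transcription factor that switches on glutathione synthesis, NADPH production and the aldo-keto reductases when its inhibitor KEAP1 is inactivated. Of 26 genes of the list, 23 were higher in PC9 and 3 in H1650, with a median of -2.34 (-2.01 at T0). AKR1C2 was 1353 and 1407 CPM in PC9 and 0.258 and 0.326 CPM in H1650, AKR1C3 1223 and 1257 against 0.568 and 0.978 CPM, and AKR1C1 895 and 917 against 2.94 and 2.89 CPM. These reductases of steroids and aldehydes are nearly identical in sequence, so the split between them is uncertain, but their log2 fold changes lay between -12.17 and -8.28. GPX2, an epithelial glutathione peroxidase, was 129 and 141 CPM in PC9 and 0.258 and 0.372 CPM in H1650 (log2 fold change -8.70, SE 0.16, adjusted p = 8.82e-26). The 3 members higher in H1650 were the transporter ABCC3 (0.65), the haem oxygenase HMOX1 (0.59) and NQO1 (613 and 649 against 726 and 783 CPM, log2 fold change 0.26), and NQO1 is itself a standard NRF2 target. A core antioxidant response element, written as TGACNNNGC on either strand, was in 5 of 20 promoters of the list (25%) and in 13.6% of all promoters.

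Aldehyde dehydrogenases added to the PC9 side. ALDH3A1 was 1750.3 and 1669 CPM in PC9 and 0.464 and 0.559 CPM in H1650 (log2 fold change -11.68, SE 0.13), and ALDH1A3, a retinoic acid-forming enzyme, 802 and 834 against 85.5 and 94.7 CPM. ALDH1L2, a mitochondrial folate enzyme, and the AHR target CYP1A1 were higher in H1650 (3.03 and 2.16). In all, 14 of 23 genes were higher in PC9 and 9 in H1650.

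**Figure D5:**
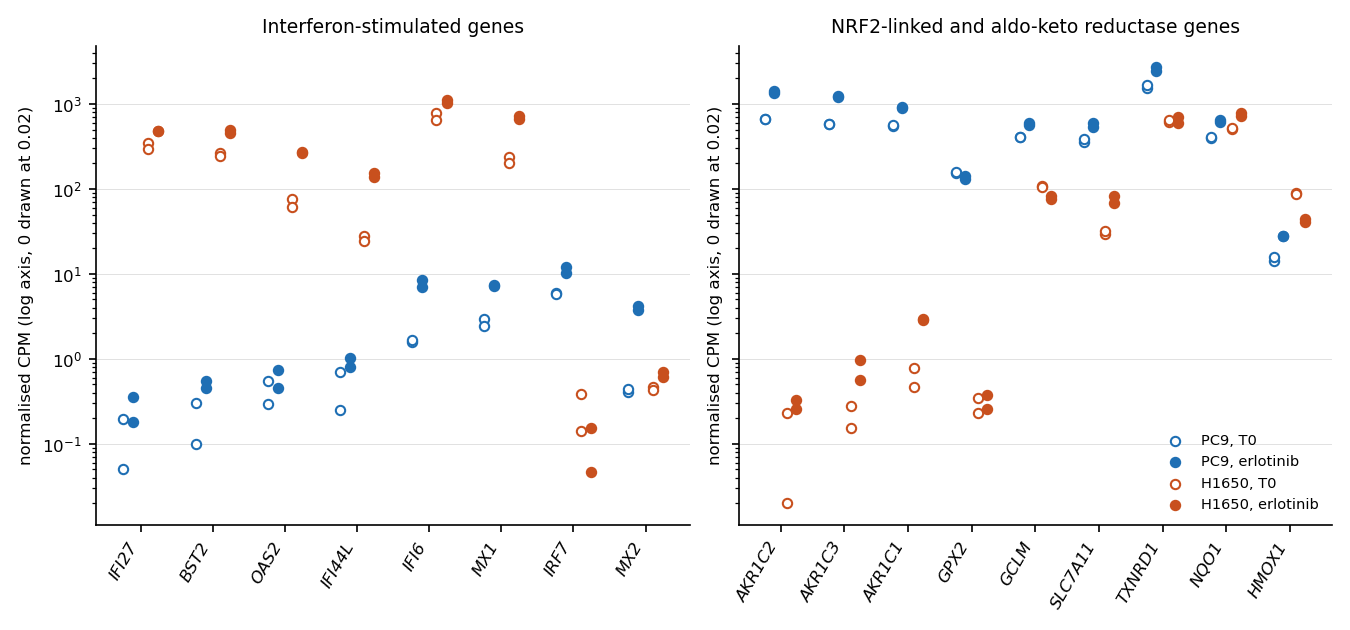
Normalised CPM on a log axis in each of the 4 T0 and 4 erlotinib libraries for 8 interferon-stimulated genes and 9 NRF2-linked or aldo-keto reductase genes; each point is 1 library and a value of 0 is drawn at 0.02. IFI27, BST2 and IFI44L are at most 1.02 CPM in every PC9 library, and AKR1C2, AKR1C3 and GPX2 are at most 0.978 CPM in every H1650 library, at both times.

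Neither line was uniformly epithelial or mesenchymal by transcript. Of 39 genes of junctions and polarity, 19 were higher in H1650 and 12 in PC9, with a median of -0.01, and of 32 mesenchymal factors and matrix genes 17 were higher in H1650 and 13 in PC9, with a median of 0.89. CDH1, E-cadherin and one of the epithelial markers above, was 219 and 229.9 CPM in PC9 and 1026 and 1125 CPM in H1650 (log2 fold change 2.26). The desmosomal cadherin DSG3 had 0 reads in PC9 and 66.6 and 70.8 CPM in H1650, and its partners DSC3 and PKP1 were also higher in H1650 (9.63 and 4.32). The tight junction protein CLDN3 was 37 and 30.8 CPM in PC9 and 0.413 and 0.14 CPM in H1650.

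On the mesenchymal side the 2 SNAI factors, which repress E-cadherin, were split between the lines. SNAI1 was 0.358 and 0.468 CPM in PC9 and 33.8 and 33.3 CPM in H1650. SNAI2 was 35 and 37.4 CPM in PC9 against 3 reads in both H1650 libraries together, a ratio of 494 (95% exact interval 169 to 2398). N-cadherin (CDH2) was 17 and 19.2 CPM in PC9 and 0.464 and 0.186 CPM in H1650. The matrix protein tenascin C (TNC) was the reverse, at 0.358 and 0.429 CPM in PC9 and 219 and 242 CPM in H1650. Its log2 fold change was 9.16, against 6.75 at T0.

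Cell-surface and matrix families differed member by member. Integrins and laminins were higher in H1650 for 19 of 29 genes and in PC9 for 5 (median 0.94). ITGA6, the laminin receptor subunit, was an emerging difference. Its 4 T0 libraries were close (1168 and 1251 CPM in PC9, 1103 and 1117 CPM in H1650), and under erlotinib PC9 held 35.3 and 35.3 CPM and H1650 732 and 829 CPM (log2 fold change 4.47, SE 0.08, adjusted p = 7.05e-26). ITGA4 and ITGA1 were higher in H1650 at both times (6.02 and 5.58 under erlotinib), and the laminin chain LAMA4 in PC9 (-2.10). Collagen chains were even, with 14 of 29 in each direction. Among the alternative settings, however, as few as 6 were higher in H1650, and the median ran from -0.89 to 0.44. COL7A1, the anchoring fibril chain, was 255 and 227 CPM in PC9 and 16 and 12 CPM in H1650, and COL3A1 had 0 reads in PC9 and 7.07 and 6.75 CPM in H1650.

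Keratins were higher in PC9 for 13 of 17 tested genes and in H1650 for 2 (median -1.24). KRT13, a keratin of stratified mucosa, was 501 and 499 CPM in PC9 against 1 read in the H1650 libraries, a ratio of 20426 (95% exact interval 3666 to 806827), and KRT17, a keratin of basal and wounded epithelium, was 129 and 124 CPM in PC9 and 4.44 and 3.72 CPM in H1650. Of the mucin genes, MUC4, MUC20 and MUC16 were higher in PC9 (-11.03, -9.23 and -4.77) and MUC1, MUC3A, MUC15 and the secretory factor SPDEF in H1650. MUC20 was 341 and 342 CPM in PC9 and 0.516 and 0.605 CPM in H1650, and its PC9 libraries had been 15.7 and 14.1 CPM at T0. MUC4 and MUC20 are repeat-rich, neighbouring genes, which makes their counts less certain.

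NF-κB and YAP genes, whose lists hold the factors and regulators beside targets, were more often higher in PC9, while chemokine and cytokine genes were divided. NF-κB genes were higher in PC9 for 10 of 18 and in H1650 for 6 (median -0.59), led by the adhesion receptor ICAM1 (49.8 and 52 against 1.86 and 1.72 CPM). YAP and TEAD genes were higher in PC9 for 11 of 19 and in H1650 for 6 (median -0.54). Tissue factor (F3) was 724 and 768 CPM in PC9 and 41.5 and 38.7 CPM in H1650, and the cytokine TGFB2 186 and 196 against 22 and 19.5 CPM. The YAP targets CCN1 and CCN2 changed order. At T0 they were higher in H1650 (2.26 and 3.21), and under erlotinib they were slightly higher in PC9, with log2 fold changes of -0.31 for CCN1 and -0.54 for CCN2, the latter at 56.8 and 65.3 CPM against 44.3 and 39.9 CPM. YAP1 itself was higher in H1650 (0.81). Of 33 chemokine and cytokine genes, 16 passed the expression filter, 9 higher in H1650 and 6 in PC9 (median 0.59, and -0.74 over the 9 with 10 counts or more in every library). CCL5 was the largest difference, with 3 reads over both PC9 libraries against 28.6 and 34.5 CPM in H1650.

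The metabolic and housekeeping lists given here had medians between -0.67 and 0.34, while single members differed far more. All 65 called genes among 75 cytosolic ribosomal proteins were higher in PC9 (median -0.67, against -0.37 at T0), 56 of the 75 were called for a change toward PC9, and the median response was 0.15 in PC9 and -0.26 in H1650. The largest was RPL10 (1988 and 2078 CPM in PC9, 519 and 517 CPM in H1650), and reads of such genes can be shared with their many processed copies. Hypoxia and glycolysis genes were higher in H1650 for 19 of 30 and in PC9 for 9. CA9, the carbonic anhydrase that marks hypoxia, and HK2, a hexokinase, were higher in H1650 (6.39 and 2.24), and the glycolytic genes ALDOC and PFKFB3 in PC9 (-3.15 and -1.38). Cholesterol synthesis genes (7 higher in H1650 and 9 in PC9 of 25) and ATF4 targets (10 and 7 of 24) were divided. Single cholesterol synthesis genes differed by between -7.94 and 1.68. The cystine transporter SLC7A11, counted among both ATF4 and NRF2 targets, was 535 and 594 CPM in PC9 and 68.7 and 82 CPM in H1650, and its transport partner SLC3A2 was also higher in PC9 (-1.87), as was the amino acid transporter SLC7A5 (-2.23). The desaturase SCD was higher in H1650 (235 and 257 against 771 and 812 CPM).

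Identity genes carried some of the sharpest contrasts. HOX genes, which record position along the body axis, were higher in H1650 for 18 of 31 tested and in PC9 for 9, with 21 standing differences and a median of 2.09. Over the 12 members with 10 counts or more in every library the counts were 2 and 8 and the median -1.10, so the direction of the list rests on members that were low in at least 1 library. HOXD9 and HOXD10 had 0 reads in PC9 and were at least 35.7-fold and 36-fold higher in H1650, while HOXB7 and HOXA3 were higher in PC9 (-2.11 and -1.96). Of 40 cancer-testis antigen genes only 7 passed the filter. PRAME had 0 reads in PC9 and 122 and 125 CPM in H1650, and MAGEA3 and MAGEA6, near-identical copies, were at 122 and 127 CPM (MAGEA3) and 114 and 123 CPM (MAGEA6) in PC9 and at most 0.186 CPM in H1650. Among lung lineage genes, 18 of 31 were below the filter, and of the 13 tested 5 were higher in H1650 and 6 in PC9 (median -1.09, and 0.87 over the 6 with 10 counts or more in every library). SFTPD, a surfactant protein, was 0.582 and 0.508 CPM in PC9 and 4.95 and 4.28 CPM in H1650, and LAMP3, a lysosomal membrane protein of alveolar type II cells, 8.47 and 9.80 against 30.9 and 36.3 CPM. FOXA1, a pioneer factor of endoderm, was 42.6 and 40.1 CPM in PC9 and 3.72 and 3.54 CPM in H1650, and CEACAM6 was 50.7 and 60 CPM in PC9 against 3 reads in H1650.

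Some genes had few or no reads in 1 of the treated lines. Among protein-coding genes called different under erlotinib (XIST and Y-linked genes left out), 585 had at most 3 reads in each PC9 erlotinib library. Of these, 114 exceeded 10 CPM in H1650, and 102 of the 114 were equally low in PC9 at T0. The mirror group numbered 427 genes, with 52 above 10 CPM in PC9, 39 of them equally low in H1650 at T0. Such counts choose genes on the values they describe. They hold called genes only, and 72.1% of all tested genes were called. In PC9, UBE2M, the conjugating enzyme of NEDD8 (chr19:58555712-58558611, GRCh38.p14), and PLXDC2, a transmembrane receptor, had 0 reads and were at least 1009-fold and 1058-fold higher in H1650. BASP1, a membrane-bound signalling protein, had 3 reads in PC9 against 240.1 and 239.6 CPM, and BMP7, a bone morphogenetic protein, 4 reads against 134 and 123 CPM. In H1650, the glutathione S-transferase GSTP1 (chr11:67583812-67586653) had 6 reads against 54884 in PC9, a ratio of 7796 (95% exact interval 3582 to 21245, counting error only). NRCAM, a neuronal adhesion molecule, had 0 reads in H1650 and 221 and 235 CPM in PC9, at least 1427-fold higher. UCHL1, a neuronal deubiquitinase, was 1109.7 and 1108 CPM in PC9 and 5.16 and 3.82 CPM in H1650, and PDZD2, a scaffold protein, was 0.672 and 0.508 CPM in PC9 and 93.8 and 106 CPM in H1650.

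Genes that first separated the lines under erlotinib included, on the H1650 side, several of replication. Beside MCM10 and ITGA6, the largest emerging differences among protein-coding genes with a mean of at least 10 CPM over the 4 erlotinib libraries were DTL, the receptor of the CDT1 ubiquitin ligase (1.93 and 1.48 CPM in PC9, 46.6 and 47.4 CPM in H1650), E2F2 (1.61 and 0.937 against 28.1 and 25.7 CPM) and the thymidylate synthase TYMS (3.05 and 3.75 against 62.4 and 55.8 CPM). For these 3 the T0 libraries lay between 28 and 84.4 CPM and the line differences were not called. On the PC9 side were the matrix protein ABI3BP (23.3 and 26.5 against 1.5 and 1.02 CPM), the lipid hydrolase ABHD4 (238 and 239.6 against 35.7 and 40.8 CPM), the histone gene H4C8 (19.7 and 21 against 3.1 and 3.77 CPM) and the autophagy gene GABARAPL1 (223 and 239.5 against 40.9 and 39.2 CPM). Each of these 4 rose in PC9 and differed from H1650 by between -4.31 and -2.53 on the log2 scale. H4C8 has near-identical copies elsewhere in the genome, and histone transcripts mostly lack the poly(A) tail by which the RNA was selected.

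Reversed and closed genes showed the lines crossing and meeting. TGM2, transglutaminase 2, was 1647 and 1708 CPM in PC9 and 367 and 367 CPM in H1650 at T0, and 17.2 and 16.6 CPM in PC9 and 527 and 514 CPM in H1650 under erlotinib (log2 fold change 4.95, SE 0.08, adjusted p = 6.73e-27). CDCA7, an E2F and MYC target, and SLCO4A1, an organic anion transporter, also passed from PC9-higher to H1650-higher (-1.96 to 3.34 and -1.98 to 3.07). In the other direction, DEPP1, a FOXO target, went from 1.54 to -3.41, TP53INP1, a stress and autophagy gene, from 4.87 to -0.58, and the lysyl oxidase LOXL4 from 3.93 to -1.02. VTCN1, an immune checkpoint ligand, had differed by 6.61 at T0 and met at 46.3 and 53.2 CPM in PC9 and 51.8 and 51.2 CPM in H1650, and the stress factor ATF3 met at 34.5 and 36 against 36.5 and 36.1 CPM. SYTL2, SFRP1, ACSL5 and TMEM154 closed as well, with erlotinib differences between -0.10 and 0.20 that were not called. A missed threshold does not show equal levels, and the SE of these 6 differences ran from 0.09 to 0.14.

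The line difference was then set against that under osimertinib, a covalent EGFR inhibitor given at a lower dose, so drug and dose cannot be told apart. The osimertinib contrast called 13688 genes, and it shares no library with the erlotinib contrast. Of all tested genes, 36.6% were called H1650-higher under osimertinib and 35% PC9-higher. The difference between the 2 contrasts was called for 995 genes (5.21%, with 3170 at an unadjusted p under 0.05), 649 of them toward H1650 with erlotinib (3.4% of all tested) and 346 toward PC9 (1.81%). The last count fell to 202 without PC9 osimertinib replicate 1 and to 211 without H1650 osimertinib replicate 1. E2F genes were higher in H1650 for 29 of 29 under osimertinib too, and G2M genes for 26 of 27. The E2F line difference was nevertheless larger under erlotinib for 10 of the 29 genes and smaller for 0, among them MCM10 (1.42, SE 0.24, adjusted p = 0.000337) and E2F1 (1.15), and 1 G2M gene, CCNA2 (0.42), was called the same way. For 10 ERK output genes the line difference also differed between the drugs, 9 of them shifted toward H1650 under erlotinib, among them SPRY1 (1.2), FOS (1.57) and DUSP4 (1.08), and the list median was 1.15 under osimertinib and 2.13 under erlotinib. Of the interferon list 11 genes were called toward H1650 with erlotinib and 0 toward PC9, with OAS2 highest at 1.73 (SE 0.31, adjusted p = 0.000545).

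Among the lists, cholesterol synthesis genes and ATF4 targets had the highest shares of members whose line difference differed between the drugs. Of the 25 cholesterol synthesis genes, 17 were called toward PC9 with erlotinib and 0 toward H1650. SCD and DHCR7 had line differences of 1.68 and -1.50 under erlotinib and 2.84 and -0.38 under osimertinib. Under osimertinib 16 of the 25 were higher in H1650 and 6 in PC9, beside 36.6% and 35% of all tested genes. Among ATF4 targets 12 were called toward PC9 with erlotinib and 3 toward H1650. MTHFD2, a mitochondrial folate enzyme, differed between the lines by 1.59 under erlotinib and 3.15 under osimertinib, and the folate enzyme ALDH1L2 of the aldehyde dehydrogenase list by 3.03 and 5.53. SLC7A11 differed by -2.90 under erlotinib and -4.02 under osimertinib, and so was shifted toward H1650 with erlotinib. Cytosolic ribosomal proteins were called toward PC9 with erlotinib for 17 of 75 and toward H1650 for 0.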

How the data were processed

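Counts per gene were deposited by the authors as one table for 12 libraries. Per the labels and the study's methods it came from featureCounts within the DolphinNext pipeline, and the submitters' processing notes name GRCh38 and DESeq2. The aligner, the gene annotation, the strand setting and the versions are not given in the sources used here.

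Of 60591 genes, 19108 passed the expression filter of edgeR (filterByExpr on the 6 groups), and 41483 did not and were not tested. One quasi-likelihood model (edgeR 4.0.16, R 4.3.3, TMM normalisation) was fitted to all 12 libraries with a mean per group, so that the groups shared one estimate of the spread (6 residual degrees of freedom and a prior of 20.7). Contrasts were the line differences under erlotinib, at T0 and under osimertinib, and the differences between them. Calls used a Benjamini-Hochberg adjusted p under 0.05 over all tested genes. CPM are TMM-normalised. Where a line had 0 reads, the fold was computed with 3 reads in each of its libraries, and otherwise as a ratio of reads with an exact binomial interval. Gene positions and promoters are from RefSeq (GRCh38.p14), which matched 16261 of the tested genes.

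The comparison, the gene lists and the rules below were chosen with earlier results of these data known. Named genes were protein-coding, with XIST and Y-linked genes left out. They were the 5 highest and 5 lowest standing differences with at least 10 reads in each erlotinib library and a mean of 10 CPM, the 4 most abundant genes with at most 3 reads per library in the other line, the 5 largest emerging and the 4 largest reversed differences each way, the 3 largest closed ones each way (all with the same mean over the 4 erlotinib libraries), every member of a list of up to 20 genes, and up to 4 called members each way of a longer list. Some genes these rules chose are not reported here. Alternatives were DESeq2 1.42.0, RLE and upper quartile factors, no filter, a stricter filter (each library with 10 counts or more), a threshold of 0.01, the 4 erlotinib libraries alone, the replicate number as a block, and each library left out in turn.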

Additional observations from a re-analysis of the deposited data

Results flagged for a closer look

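The results listed here are those for which the difference between the lines was itself tested against another condition and passed. No group holds 4 or more libraries, so no library was tested as an outlier within its group. The line difference changed between T0 and erlotinib for 7802 genes and differed between erlotinib and osimertinib for 995 genes (edgeR's quasi-likelihood test, Benjamini-Hochberg adjusted p under 0.05).

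Among named genes that had been chosen without regard to such a change, the 7 given here had one, each as log2 change of H1650 minus PC9 from T0 to erlotinib. The interferon-stimulated genes OAS2 and IFI44L moved further toward H1650, by 1.46 and 1.52, as did PDZD2 by 1.26, and IFI6 moved toward PC9 with -1.68, having risen more in PC9. AKR1C1 moved toward H1650 with 1.49. The values of GSTP1 (4.36) and NRCAM (-5.14) rest on H1650 libraries with 0 to 4 reads and depend on the prior count, so they are no measure of size.

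The other 23 were chosen because the change was called, and their values are a description. Emerging differences moved toward H1650 for MCM10 (5.11), DTL (4.68), ITGA6 (4.59), E2F2 (4.44) and TYMS (4.19), and toward PC9 for ABI3BP (-3.89), ABHD4 (-2.66), H4C8 (-2.75) and GABARAPL1 (-2.32). Reversals toward H1650 were ETV5 (7.80), TGM2 (7.14), CDCA7 (5.29) and SLCO4A1 (5.05), and toward PC9 TP53INP1 (-5.45), PIK3IP1 (-5.44), DEPP1 (-4.95) and LOXL4 (-4.95). Closed differences were VTCN1 (-6.57), ATF3 (-4.17) and SYTL2 (-3.50), which had been higher in H1650 at T0, and SFRP1 (3.02), ACSL5 (2.71) and TMEM154 (2.70), which had been higher in PC9.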

How the results depend on the processing

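The 42 genes chosen by rule outside the lists kept their direction and their side of the threshold in all 854 pairs of gene and alternative. They had been picked as the largest or most abundant of their class, so this stability was largely set by the choice. Calls under erlotinib numbered 12736 to 14057 with a library left out, 12751 with DESeq2, 13163 from the 4 erlotinib libraries alone and 10034 under the stricter filter of 10 counts or more per library, and none of the calls shared with an alternative had the opposite sign. The count over 2-fold fell from 7771 to 4004 under the stricter filter, where genes silent in 1 line are not tested. Under that filter, with fewer members tested, the median line difference turned to -0.74 for chemokines, 0.87 for lung lineage genes and -1.10 for HOX genes. Over all alternatives, the median also changed sign for collagen chains (0.07, lowest -0.89) and cancer-testis antigens (0.45, lowest -0.46). Sign changes also occurred for the BH3-only, epithelial, mucin and cholesterol lists, whose medians were small. For other receptor tyrosine kinases the median fell from 1.62 to as low as 0.24. The E2F genes had 29 of 29 higher in H1650 under every alternative. Other scalings shifted the median of all genes by -0.07 (upper quartile factors) or less.

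The contrast of line differences between the drugs depended most on the settings. Its 995 genes (649 toward H1650 with erlotinib, 346 toward PC9) became 500 (347 and 153) at an adjusted p under 0.01 and 1722 (1027 and 695) with the replicate block. With a library left out, where the lone library of that group is assumed to vary like the others, calls toward PC9 ranged from 202 to 339, with 202 without PC9 osimertinib replicate 1 and 211 without H1650 osimertinib replicate 1. The cause was not tested. The labels give only a shared replicate number. Deviations of same-numbered PC9 and H1650 erlotinib libraries correlated at 0.38 (0.000266 to 0.38 over all pairs of groups), and with the replicate block the erlotinib contrast called 14072 genes. At these depths a gene read below 0.117 CPM could not be told from a silent one.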

Other observations

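Chromosomes differed in their median line difference, which was computed after earlier values had been seen and is given as a description. Under erlotinib the median was -0.78 over 206 such genes of chromosome 13, where 71.8% were called higher in PC9, and -0.43 over 405 genes of chromosome X. It was 0.51 on chromosomes 20 (360 genes) and 21 (118 genes), where 63.9% and 66.1% were called higher in H1650. At T0 the same medians were -0.92, -0.39, 0.46 and 0.58. Over 12280 sliding windows of 25 neighbouring genes, the medians at T0 and under erlotinib had a Pearson correlation of 0.90, as a description of overlapping windows.

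Some neighbouring genes were silent together in 1 line, a pattern picked out after the values had been seen. Runs of at least 2 adjacent tested protein-coding genes, each with at most 3 reads in all 6 libraries of a line and at least 5 CPM in the other line under erlotinib, numbered 7 in PC9 and 3 in H1650. On chromosome 19, UBE2M and MZF1 had 0 reads in all 6 PC9 libraries against means of 137.6 and 72.7 CPM in H1650, and ZSCAN1 and ZNF135 had 0 reads against 7.58 and 20.3 CPM. In H1650, CDKN2A and CDKN2B had 0 reads in all 6 libraries against 174.9 and 128 CPM in PC9. The other runs were BICC1 and PHYHIPL, CMPK2 and RSAD2, HOXD10 and HOXD9, EIF4E3 and GPR27, and the exon-sharing PCDHGA7 and PCDHGB4 in PC9, and UGT1A6 and UGT1A1, which share exons as well, and GABRA3 and MAGEA3 in H1650.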
